A study of Rattus norvegicus with 10 samples.

Results

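The nuclear-encoded genes of the mitochondrial respiratory chain and ATP synthase were examined in rat hippocampus after experimental epilepsy. Genes were taken from the messenger RNA count matrix by the start of their rat symbol: Ndufa, Ndufb, Ndufc, Ndufs and Ndufv for complex I, Sdh for complex II, Uqcr for complex III, Cox4 to Cox8 for complex IV and Atp5 for ATP synthase. The matrix held 91 rows for 88 such symbols among its 32041 features, and the row with the highest mean count was used where a symbol had several. A summed count of at least 46 over all rats was required, which 86 of the 88 symbols and 22447 of all features met. Cox6c-ps1, a pseudogene, and Cox8c, a testis form, were the symbols below it, with sums of 2 and 4 counts. The prefixes also took in some genes that are not subunits: 6 complex I assembly factors, 2 complex II assembly factors, the ATP synthase inhibitor Atp5if1, the supercomplex factor Cox7a2l and Cox7a2l2, which was given no role.

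Adult male Sprague-Dawley rats, an outbred strain, all carried an electrode in the lateral amygdala and were housed singly after surgery. In 5 stimulated rats, current pulses (400 µA, 60 Hz, 30 min) evoked status epilepticus, a long-lasting seizure state that was then stopped with diazepam; per the methods of the study, all stimulated rats later had spontaneous seizures. The 5 age-matched sham rats received no current. The left hippocampus was taken 3 months later, and polyadenylated RNA from a piece holding the CA3 field and the dentate gyrus was sequenced in reads of 36 cycles. Rats 1 to 5 are the sham rats and rats 6 to 10 the stimulated rats. Each sample was 1 rat, so the p-values below measure the spread between rats. The comparison asked whether nuclear-encoded transcripts of the respiratory chain differ in tissue with established epilepsy.

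The respiratory chain passes electrons from NADH (through complex I) and succinate (through complex II) by way of complex III and cytochrome c to oxygen at complex IV, and ATP synthase uses the proton gradient this builds to make ATP. Apart from complex II, each complex combines subunits encoded in mitochondrial DNA with a larger number encoded in the nucleus. Neurons depend on this pathway to restore ion gradients after firing, and the hippocampus is among the brain regions damaged by prolonged seizures.

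The promoters of these genes are known for binding sites of NRF1 (nuclear respiratory factor 1) and of GABP, an ETS-family factor also called NRF2. Of the 86 members, 77 were found in the RefSeq promoter table of the GRCr8 assembly, which gives 250 bases before and 50 bases after each gene start. The core NRF1 motif of 10 bases, searched on both strands with any base allowed at the sixth position (the capitals in the sequences printed next show its letters), was in 14 of the 77 promoters (18.2%) against 4.71% of all 27457 promoters. The ETS motif CCGGAAG, on either strand like the motifs that follow, was in 24 (31.2%) against 9.22%, and the YY1 motif AAGATGGCG was in 10 (13.0%) against 1.93%. The letters TATAAA, part of the TATA box, were in 7 (9.09%) against 14.3%. Over the 19005 promoters of protein-coding genes alone, the shares were 6.09% for the NRF1 motif, 11.2% for ETS, 2.29% for YY1 and 13.1% for TATAAA. At least 1 of the first 3 motifs was in 42 of the 77 promoters, and matches of different motifs among these 3 overlapped in 0 of them. The matching shares over all promoters were not computed, so neither count can be read as a trait of the members. These are matches of letters and not measured binding sites, and promoters of different genes are not independent.

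The NRF1 matches are shown for the most counted gene of each complex that had one upstream of its start, 5′ to 3′ on the gene's own strand, with the matched bases in capitals. In Ndufa11, a membrane subunit of complex I (GRCr8, chr9:1637477-1637572, plus strand), 2 matches overlap. In Sdha, the flavoprotein subunit of complex II (chr1:30764424-30764552, plus strand), 2 matches stand apart, and the third match in this promoter runs across the gene start, where the printed window ends. Uqcrc1, a core protein of complex III (chr8:118468119-118468208, plus strand), and Atp5po, a stalk subunit of ATP synthase (chr11:44657493-44657582, minus strand), have 1 each. None of the complex IV members in the table held an NRF1 match. Cox4i1, the main form of a complex IV subunit, is shown in its place for a pair of ETS matches from base 4 to base 30 after its start (chr19:65630386-65630412, plus strand).
Ndufa11: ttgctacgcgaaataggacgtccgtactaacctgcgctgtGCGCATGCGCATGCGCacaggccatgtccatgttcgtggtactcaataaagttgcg
Sdha: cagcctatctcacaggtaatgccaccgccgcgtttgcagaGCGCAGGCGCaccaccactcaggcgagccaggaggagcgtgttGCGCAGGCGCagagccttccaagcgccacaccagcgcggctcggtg
Uqcrc1: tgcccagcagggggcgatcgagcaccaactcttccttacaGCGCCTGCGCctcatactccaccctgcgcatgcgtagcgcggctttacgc
Atp5po: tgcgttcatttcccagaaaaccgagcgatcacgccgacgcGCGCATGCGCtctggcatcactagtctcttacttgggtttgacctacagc
Cox4i1: CTTCCGGtgcgggacccgctCTTCCGG

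Libraries held 13552309 to 24086059 aligned reads, and ribosomal RNA took 1.82 to 12.2% of them in sham rats and 3.03 to 5.64% in stimulated rats. Members together took 1.32% ± 0.156 (SD, n = 5) of aligned reads in sham rats and 1.33% ± 0.0678 (n = 5) in stimulated rats. Their mean count per rat ran from 5.3 for Cox8b to 27886.5 for Atp5f1b, with a median of 2274.6. Neuronal markers were present in every library, and the score of 10 of them (mean log2 CPM) ran from 8.92 to 9.02 in sham rats and from 8.81 to 9.01 in stimulated rats. The tissue held many cell types, and fewer cells of a type cannot be told apart from less RNA per cell. The reference names 95 pseudogene entries for 41 of the 86 members. How reads shared by several transcripts were counted is unknown, so values of members with such copies are uncertain.

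No tested member passed the test between stimulated and sham rats. Subunits encoded in mitochondrial DNA were not among the members. Of the 86 members, 40 had a higher mean and 46 a lower mean in stimulated rats, and the median log2 fold change was -0.0048, beside 0.012 over all tested features. With edgeR's quasi-likelihood test and Benjamini-Hochberg adjustment over all features, 0 of 86 members had an adjusted p under 0.05, where 0% of all features did. At an unadjusted p under 0.05, 0 of 86 members were called, where 9.86% of all features were (6.7% higher and 3.16% lower). The likelihood ratio test, edgeR's exact test, DESeq2 and limma-voom also called 0 members at either threshold. With 1 rat left out at a time, 0 to 3 members were higher and 0 to 1 lower at the unadjusted threshold (the 3 being Cox7a2, Ndufa10 and Ndufa10l1 without sham rat 5), and 0 passed after adjustment. Of the 22447 features, 1118 to 1850 were higher and 515 to 1281 lower at that threshold in these fits.

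The intervals were narrow. For 81 of the 86 members (94.2%) the 95% interval of the log2 fold change lay within ±0.5, a change of less than 1.41-fold in either direction, against 44.9% of all tested features. These 81 were all the members with a mean above 100 counts per rat, and their log2 fold changes ran from -0.18 (Ndufs7) to 0.21 (Ndufa10l1). The median standard error was 0.104 over the 86 members and 0.172 over all features, of which the median mean count was 210.0. The remaining 5 members were low-count forms of complex IV subunits with restricted expression: Cox4i2, Cox6a2, Cox6b2, Cox8b and Ndufa4l2. Only the intervals of these 5 reached beyond the band, so differences of the 1.41-fold size were not detectable for them here.

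**Figure D1:**
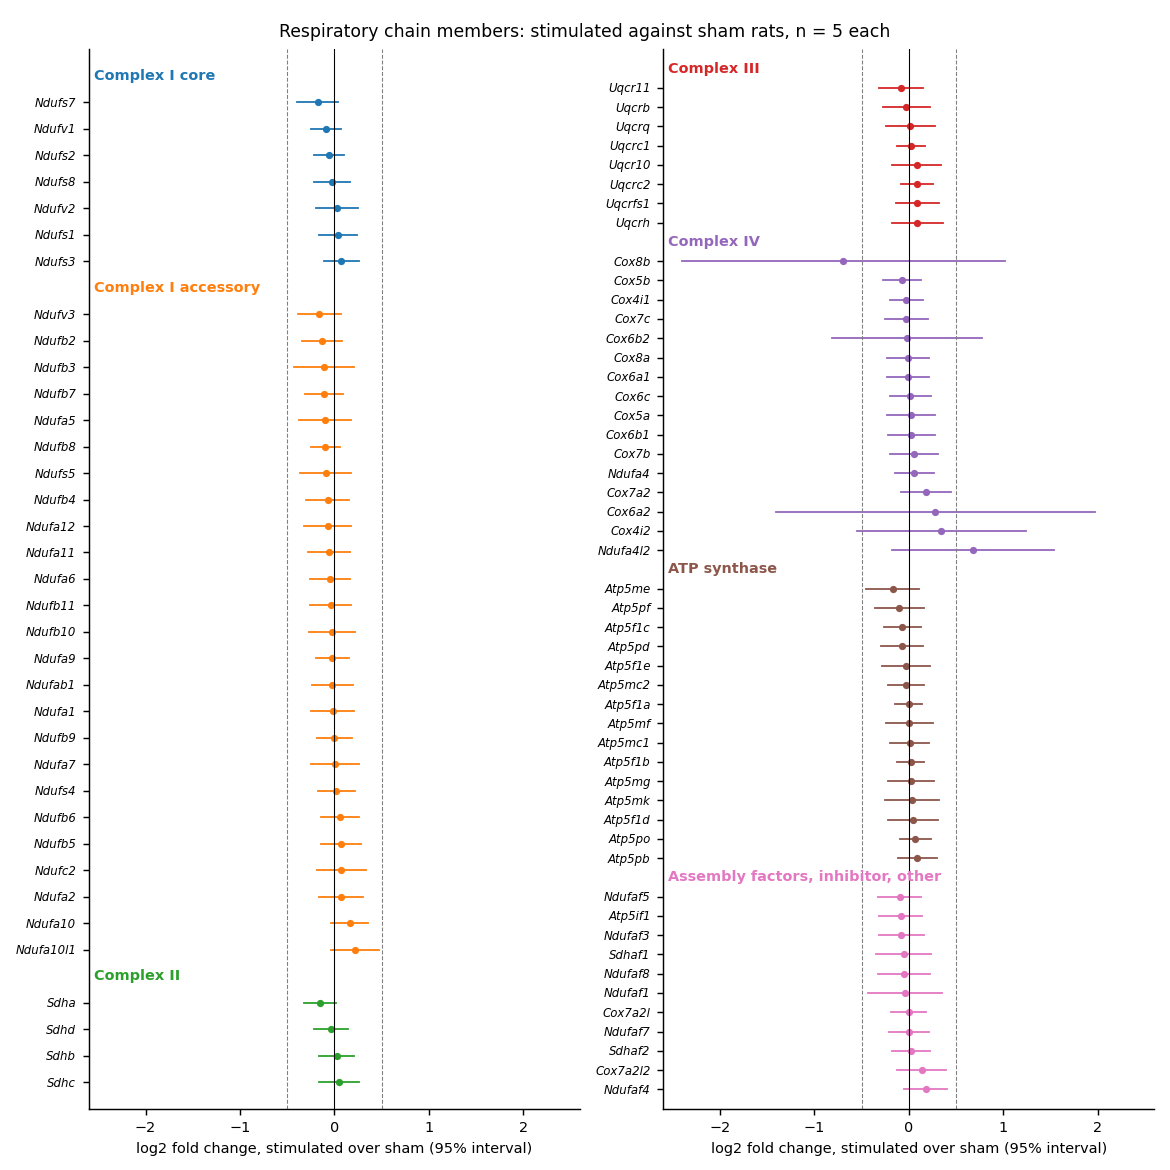
Log2 fold change of each of the 86 members between stimulated and sham rats (x axis; n = 5 rats each) with its 95% interval from edgeR, grouped by complex; dashed lines mark ±0.5. All intervals cross 0, and those of 81 members stay between the dashed lines.

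Complex I takes electrons from NADH, and its core subunits carry the flavin and the iron-sulphur clusters. Of the 7 nuclear-encoded core subunits, 3 had a higher and 4 a lower mean in stimulated rats, with a median log2 fold change of -0.03, and 0 passed the test. Ndufv1, which binds NADH and was the core subunit with the most counts, measured 265, 269, 234, 268 and 267 CPM (counts scaled to 1000000 aligned reads with TMM factors) in sham rats 1 to 5 and 227, 236, 268, 255 and 242 CPM in stimulated rats 6 to 10. The groups overlapped, and the log2 fold change was -0.09 (SE 0.0745, edgeR adjusted p = 0.725). Ndufs7, which carries the last iron-sulphur cluster before ubiquinone, measured 125, 144, 111, 125 and 125 CPM in sham rats and 116, 90.2, 115, 110.1 and 126 CPM in stimulated rats. Stimulated rats 7 and 9 lay below all sham rats and the other 3 within their range (log2 fold change -0.18, SE 0.10, edgeR adjusted p = 0.569). Ndufs3, a subunit of the arm in the matrix, was at 102 ± 10.8 CPM (SD, n = 5) in sham rats and 107 ± 3.61 CPM (n = 5) in stimulated rats.

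Accessory subunits of complex I surround this core. Of 25 tested from a list of 31, 8 had a higher and 17 a lower mean in stimulated rats, with a median log2 fold change of -0.03, and 0 passed the test. The highest was Ndufa10l1, a close relative of the accessory subunit Ndufa10. It measured 55.1, 57.3, 48.7, 64.9 and 69.8 CPM in sham rats and 57.0, 79.8, 62.1, 73.9 and 70.8 CPM in stimulated rats. Stimulated rats 7, 9 and 10 lay above all sham rats and rats 6 and 8 among them (log2 fold change 0.21, SE 0.119, edgeR adjusted p = 0.563). Ndufa10 itself was at 109.9 ± 10.2 CPM against 123 ± 11.04 CPM (0.16, adjusted p = 0.568). Reads that this pair of related sequences share could be counted for either. The lowest was Ndufv3, a small subunit near the NADH site, at 58.5 ± 5.59 against 52.4 ± 6.61 CPM (-0.16, adjusted p = 0.636). Ndufv3 had 2 rows in the matrix, and with the rows of a symbol summed its log2 fold change was -0.09, so its place depends on the row used. Ndufb9, with the most counts among accessory subunits, was at 240.1 ± 23.4 CPM against 239.8 ± 18.8 CPM, with a 95% interval of its log2 fold change from -0.19 to 0.19.

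Complex II, succinate dehydrogenase, is also an enzyme of the citric acid cycle and is encoded wholly in the nucleus. All 4 subunits were tested, 2 higher and 2 lower. Sdha, which oxidizes succinate, had the lowest unadjusted p of all members. It measured 307, 324, 297, 328 and 312 CPM in sham rats and 303, 271, 312, 279 and 246 CPM in stimulated rats. Stimulated rats 7, 9 and 10 lay below all sham rats and rats 6 and 8 among them (log2 fold change -0.15, SE 0.0787, edgeR adjusted p = 0.547). Sdhb, the iron-sulphur subunit, had a log2 fold change of 0.02, and the membrane anchors Sdhc and Sdhd 0.04 and -0.04.

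Complex III passes electrons from ubiquinol to cytochrome c. Of 8 subunits tested, 6 had a higher and 2 a lower mean, with a median log2 fold change of 0.05, and 0 passed the test. Uqcrc1, a core protein, had the smallest spread of all members. It measured 272, 275, 248, 268 and 263 CPM in sham rats and 249, 277, 278, 276 and 268 CPM in stimulated rats, so that sham rat 3 and stimulated rat 6 were the low rats of otherwise level groups (log2 fold change 0.02, 95% interval -0.12 to 0.17). The extremes were the hinge protein Uqcrh (125 ± 19.3 against 134 ± 20.4 CPM, 0.09) and the small subunit Uqcr11 (264 ± 42.3 against 249 ± 23.0 CPM, -0.09), both within the spread of the rats. Cycs, the somatic cytochrome c that complex III reduces, had a log2 fold change of -0.00035 (SE 0.0859), with means of 72.9 CPM in both groups.

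Complex IV reduces oxygen. Of 16 nuclear-encoded members tested, 9 had a higher and 7 a lower mean, with a median log2 fold change of 0.02, and 0 passed the test. Cox4i1 measured 562, 579, 482, 533 and 599.7 CPM in sham rats and 517, 575, 551, 476 and 585 CPM in stimulated rats. The ranges coincided almost wholly (log2 fold change -0.03, SE 0.0826, edgeR adjusted p = 0.938). Ndufa4, named as a complex I subunit, is a part of complex IV and is counted here. The common forms Cox6a1, Cox6b1, Cox8a and Ndufa4 had log2 fold changes between -0.01 and 0.06. Cox7a2 was at 50.04 ± 8.93 CPM against 56.8 ± 5.73 CPM (0.18, edgeR adjusted p = 0.638).

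ATP synthase is a rotary enzyme with a catalytic F1 head and a membrane part joined by stalks. The 5 F1 subunits, 2 higher and 3 lower, had a median log2 fold change of -0.0009, and the 10 tested stalk and membrane subunits, 6 higher and 4 lower, had one of 0.0068. Atp5f1b, the catalytic beta subunit and the member with the most counts, measured 1401, 1451, 1304, 1446 and 1489 CPM in sham rats and 1376, 1543, 1408, 1436 and 1416 CPM in stimulated rats. No group was set apart, and its 95% interval ran from -0.12 to 0.16. The extremes were Atp5f1d (0.04) and Atp5f1c (-0.07) in the head and Atp5pb (0.09) and Atp5me (168 ± 28.2 against 149 ± 22.1 CPM, -0.17, edgeR adjusted p = 0.684) outside it. Atp5po had the most counts of the stalk and membrane list, at 236 ± 18.5 against 247 ± 12.6 CPM. Atp5if1, which blocks the enzyme when it runs backwards, was at 157 ± 18.5 against 148 ± 16.7 CPM (-0.09).

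**Figure D2:**
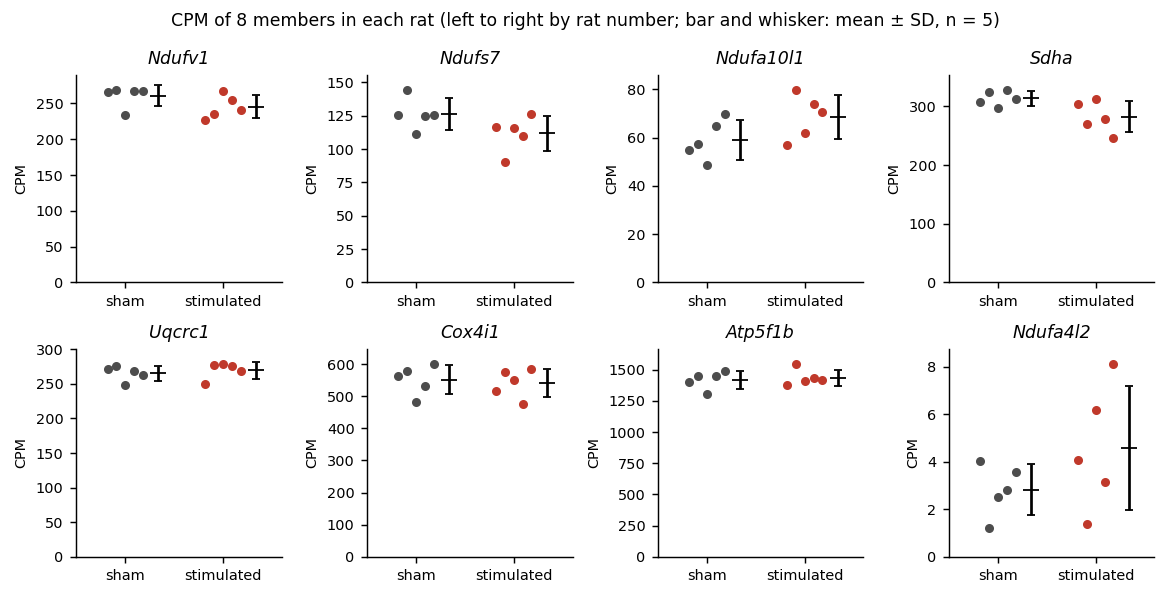
CPM of 8 members in each rat (y axis from 0), sham rats in grey and stimulated rats in red, in the order of rat number; bars and whiskers give the mean ± SD of 5 rats. Groups overlap in every panel, from Atp5f1b at 1304 to 1543 CPM to Ndufa4l2 at 1.22 to 8.10 CPM.

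Assembly factors are not part of the finished complexes. Of the 6 for complex I, 2 had a higher and 4 a lower mean. Ndufaf4, which acts on an early intermediate of complex I, was the only member of the 86 whose groups did not overlap, where 1.29% of all tested features did not. It measured 17.97, 18.5, 19.2, 15.2 and 19.0 CPM in sham rats and 19.2, 19.4, 21.1, 22.5 and 19.3 CPM in stimulated rats. The highest sham rat and the lowest stimulated rat were thus almost level, and the test was not passed (log2 fold change 0.18, SE 0.104, edgeR adjusted p = 0.590). The lowest was Ndufaf5, a modifying enzyme of a complex I subunit, at 28.6 ± 2.89 against 26.7 ± 2.55 CPM (-0.10). Cox7a2l, which joins complex III to complex IV in supercomplexes, was at 159.97 ± 16.2 CPM against 159.7 ± 9.88 CPM.

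Several complex IV subunits have a second form that is made in particular tissues, and the ratio of the second to the common form was compared between groups for 5 pairs. The difference in the mean log2 ratio between stimulated and sham rats was tested with an exact two-sided permutation test over all 252 assignments of rats, whose smallest p is 0.00794, with adjustment over the 5 pairs. None of the differences passed it. Ndufa4l2, a hypoxia-inducible relative of Ndufa4 found in vessel-wall cells, measured 4.01, 1.22, 2.50, 2.81 and 3.56 CPM in sham rats and 4.07, 1.39, 6.19, 3.16 and 8.10 CPM in stimulated rats. Stimulated rats 8 and 10 were far above the sham range, rat 6 was just above its top, and rats 7 and 9 were inside it. Its own log2 fold change was 0.68 (SE 0.398, edgeR adjusted p = 0.587), and its ratio to Ndufa4 differed by 0.49 on the log2 scale (exact permutation p = 0.389, adjusted 0.807). Without stimulated rat 7 the log2 fold change of Ndufa4l2 was 0.91 (under the unadjusted threshold, edgeR adjusted p = 0.624), and without stimulated rat 10 it was 0.37.

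The other 4 second forms had few reads. Cox4i2, the lung and hypoxia-linked form of Cox4i1, had 15 to 75 counts in sham rats and 21 to 116 in stimulated rats. Its log2 ratio to Cox4i1 differed by 0.30 (exact permutation p = 0.484, adjusted 0.807). Stimulated rat 7 was the highest, at 5.39 CPM, and without it the log2 fold change of Cox4i2 itself went from 0.35 to -0.15. With 1 rat left out at a time, the difference in the ratio ran from 0.0085 to 0.47. The ratio of Cox8b to Cox8a differed by -0.88 (exact p = 0.190, adjusted 0.807). Cox8b, a heart and muscle form, had 5 to 10 counts in sham rats and 0, 3, 0, 12 and 6 counts in stimulated rats 6 to 10. A count of 0 in stimulated rats 6 and 8 allows up to 0.136 and 0.192 CPM, taking 3 counts as the limit, which covers counting error only. The ratios of the muscle form Cox6a2 to Cox6a1 and the testis form Cox6b2 to Cox6b1 differed by 0.07 (exact p = 0.937, adjusted 0.937) and -0.11 (exact p = 0.722, adjusted 0.903). Levels of hypoxia-inducible and mural cell genes by rat are given with the other gene groups.

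Members shifted together in single rats, and the shift did not follow the groups. Each rat's shift was taken as the median over the 86 members of the log2 CPM minus the mean of the sham rats. In sham rats 1 to 5 it was -0.010, 0.026, -0.195, -0.003 and 0.232, and in stimulated rats 6 to 10 it was -0.055, 0.101, -0.012, -0.051 and 0.027. Sham rat 3 was thus low and sham rat 5 high, and the stimulated rats lay between them. The same median over all tested features stayed between 0.00075 and 0.023 in every rat. TMM factors are set to level most features between libraries, so this closeness to zero largely follows from the scaling. The mean shift of the sham group was 0.010 ± 0.152 and that of the stimulated group 0.0019 ± 0.0645 (SD, n = 5).

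**Figure D3:**
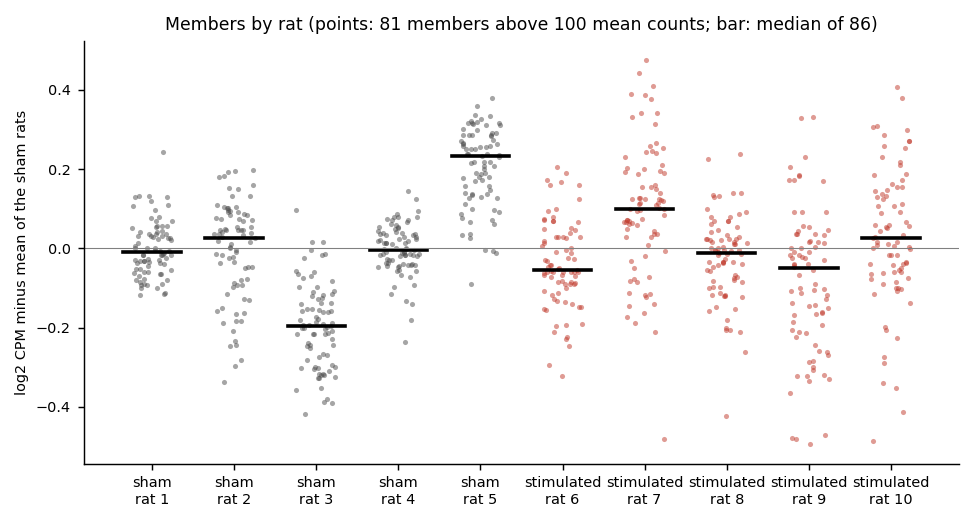
Log2 CPM minus the mean of the sham rats (y axis) of the 81 members above 100 mean counts, 1 point per member, in each of the 10 rats (x axis); the bar is the median of all 86 members. The bars of sham rat 3 at -0.195 and sham rat 5 at 0.232 are the lowest and the highest, and the 5 stimulated rats sit between -0.055 and 0.101.

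Sham rat 3 was the lowest sham rat for 67 of the 86 members, where it was so for 20.9% of all features, and sham rat 5 was the highest for 68, where it was so for 20.2%. Sham rat 5 was also the highest of all 10 rats for 48 members (7.49% of all features) and sham rat 3 the lowest for 41 (8.84%). Among stimulated rats, rat 7 was the highest for 42 members (23.9% of all features) and rat 9 the lowest for 34 (20.5%). Cox8a shows the pattern in 1 gene, with 390.1, 414, 314, 411 and 498 CPM in sham rats. Sham rats 3 and 5 were its extremes, and the stimulated rats lay between 378 and 446 CPM.

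The shift ran through all complexes and was smallest in complex II and the assembly factors. In sham rats 3 and 5 it was -0.206 and 0.232 for complex I subunits, -0.251 and 0.252 for complex III, -0.209 and 0.313 for complex IV and -0.196 and 0.251 for ATP synthase. It was -0.100 and 0.125 for the 4 complex II subunits and -0.087 and 0.143 for the 8 assembly factors. The differences between complexes were not tested.

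Other gene sets, chosen after these values were seen, also shifted down in sham rat 3 and up in sham rat 5, where the members were at -0.195 and 0.232. The 70 cytosolic ribosomal proteins measured were at -0.223 and 0.178 in sham rats 3 and 5, the 68 mitochondrial ribosomal proteins at -0.161 and 0.175 and the 37 proteasome subunits at -0.132 and 0.115. The 17 glycolysis genes were at -0.107 and 0.068 and the 20 genes of pyruvate dehydrogenase and the citric acid cycle at -0.057 and 0.058. In stimulated rats 7, 9 and 10 the members were at 0.101, -0.051 and 0.027. Cytosolic ribosomal proteins were at 0.057, -0.173 and -0.133 there, and mitochondrial ones at 0.096, -0.161 and -0.020. Proteasome subunits were at 0.370, 0.009 and 0.054, and glycolysis genes at 0.214, 0.036 and 0.185. Ribosomal RNA took 7.42% of aligned reads in sham rat 3 and 1.82% in sham rat 5, the lowest share of all rats, beside 6.18 to 12.2% in the other sham rats. The neuronal marker score was 8.929 and 8.997 in sham rats 3 and 5. The part of these values in the shift was not tested. With both rats left out, an alternative added after the data were seen, 0 of 86 members were called at an unadjusted p under 0.05 and the median log2 fold change of the members was -0.0048. In that fit 875 of the 22447 features were higher and 458 lower at the same threshold.

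Taking each rat's median shift away lowered the spread within groups. The median SD of log2 CPM within groups over the 86 members went from 0.166 to 0.119, and it was smaller for 71 members (82.6%). The same shift taken from all features raised their median SD from 0.270 to 0.298 and was smaller for 28.1%. Since the shift was measured on the members themselves, some fall in their SD follows from the construction. Before it was removed, the median SD was 0.114 for complex I core and complex II subunits, 0.142 for the F1 head, 0.165 for complex I accessory subunits, 0.181 for stalk and membrane subunits, 0.192 for complex III and 0.201 for complex IV. Uqcrc1 (0.0630) and Atp5f1b (0.0685) had the smallest values, and after removal they were 0.106 and 0.0682. Cox8a, with 0.179 before and 0.0857 after, was among those that followed the shift of each rat. With libraries scaled to the median member in place of TMM factors, an alternative added later, the members' median log2 fold change was 0.0070 and only Ndufa10l1 was called at an unadjusted threshold (0.23, edgeR adjusted p = 0.635). In that fit 1349 of the 22447 features were higher and 395 lower at this threshold.

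**Figure D4:**
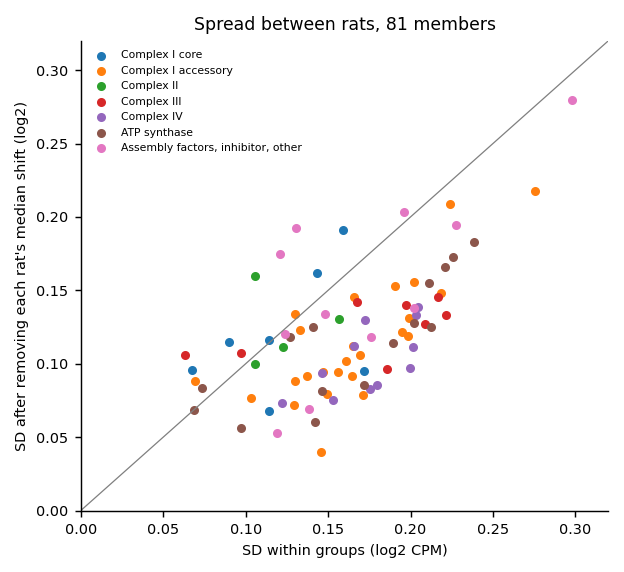
SD of log2 CPM within groups before (x axis) and after (y axis) each rat's median shift over the members was removed, for the 81 members above 100 mean counts, coloured by complex; the line marks equal values. Most points lie under the line, while Uqcrc1, Sdha and several complex I core subunits and assembly factors lie above it.

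Genes around the respiratory chain were compared in the same fit, and 0 of them had an adjusted p under 0.05. At an unadjusted p under 0.05, 6.7% of all tested features were higher and 3.16% lower. Of 27 tested assembly factors outside the prefixes, 9 had a higher and 18 a lower mean, and 1 had an unadjusted p under 0.05: Pet100, needed for complex IV assembly, at 31.8 CPM in the sham group and 26.5 CPM in the stimulated group (log2 fold change -0.26, edgeR adjusted p = 0.445). Of 15 regulators of mitochondrial biogenesis, 9 were higher and 6 lower, and 0 had an unadjusted p under 0.05. Nrf1, whose motif is shown above, was at 6.005 and 7.83 CPM (0.38, edgeR adjusted p = 0.574), Ppargc1a, a coactivator of biogenesis, had a log2 fold change of 0.29, Tfam, which packs mitochondrial DNA and starts its transcription, 0.15, and Gabpa, the DNA-binding part of GABP, -0.0072. Of 10 mitochondrial carriers and porins, 6 were higher and 4 lower. Slc25a27, a brain uncoupling-protein relative, had the lowest p among them (-0.24, edgeR adjusted p = 0.573).

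Fuel-handling and hypoxia-inducible genes were counted in the same way, beside the same shares of all tested features (6.7% higher and 3.16% lower at an unadjusted p under 0.05). Of 20 genes of pyruvate dehydrogenase and the citric acid cycle, 7 were higher and 13 lower with a median log2 fold change of -0.01, and 1 had an unadjusted p under 0.05: Pdk4, the kinase that switches pyruvate dehydrogenase off, at 0.654 and 1.29 CPM (0.95, edgeR adjusted p = 0.448). Of 17 glycolysis genes, 12 were higher and 5 lower with a median of 0.10. Those with an unadjusted p under 0.05 were Pfkp, a phosphofructokinase (369 and 570.2 CPM, 0.63, edgeR adjusted p = 0.421), Ldha (0.49) and Hk2 (0.66), all higher. The glycolysis score was 8.97 and 8.86 in stimulated rats 7 and 10, while stimulated rats 6, 8 and 9, at 8.63, 8.66 and 8.695, lay within the sham range of 8.55 to 8.70. Of 12 hypoxia-inducible genes, 9 were higher and 3 lower with a median of 0.16, and 4 had an unadjusted p under 0.05, all higher: P4ha1, a collagen prolyl hydroxylase (46.1 and 66.2 CPM, 0.52, edgeR adjusted p = 0.376), Slc2a1 (0.75), Pfkfb3 (0.87) and Vegfa (1.15). The hypoxia score was 3.96 to 4.17 in sham rats and 4.01, 4.95, 3.94, 4.32 and 4.33 in stimulated rats 6 to 10, so stimulated rat 7, whose Ndufa4l2 was at 1.39 CPM, stood far above the rest. The differences between these lists and the members were not tested.

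**Figure D5:**
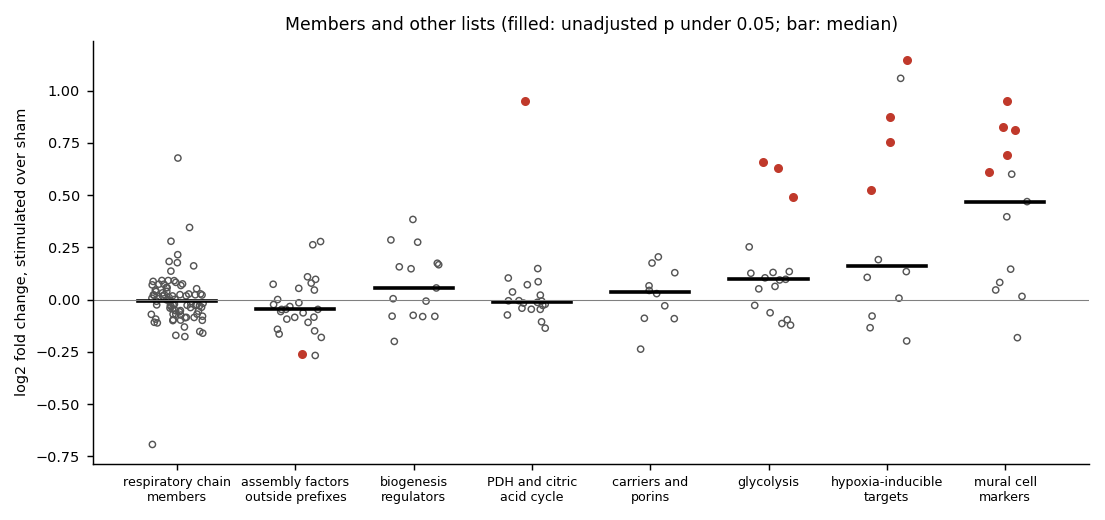
Log2 fold change between stimulated and sham rats (y axis) of the 86 members and of 7 other gene lists, 1 point per gene; filled points have an unadjusted p under 0.05 and bars are medians. Members hold no filled point, while glycolysis, hypoxia-inducible and mural cell genes hold 3, 4 and 5, all above 0. Over all tested features, 6.7% were higher and 3.16% lower at that threshold.

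Markers of the cell types in the piece were compared in the same fit, and 0 had an adjusted p under 0.05. The counts at an unadjusted p under 0.05 stand beside 6.7% of all tested features higher and 3.16% lower. Neuronal markers, 10 in number, had a median log2 fold change of -0.06, those of dentate granule cells -0.20 over 4 tested, oligodendrocyte markers -0.16 over 10 and CA3 pyramidal cell markers 0.02 over 5, with 0, 0, 0 and 1 of them at an unadjusted p under 0.05 (Socs2 of the CA3 list at 0.72). Of 8 interneuron markers, 4 were higher and 4 lower with a median of 0.01, and Npy alone had an unadjusted p under 0.05 (3.21), beside Sst at 0.60, Gad1 at -0.21 and Pvalb at -0.24. Astrocyte markers had a median of 0.07, with 4 of 9 at an unadjusted p under 0.05 (Gfap at 1.06), microglial markers 0.27 with 2 of 10, endothelial markers 0.27 with 5 of 12, and mural cell markers 0.47 with 5 of 13, all those counted being higher, while 0 of 7 choroid plexus and ependymal markers were counted (median 0.23). The mural score was 3.04 to 3.21 in sham rats and 3.17, 3.09, 3.66, 3.51 and 3.95 in stimulated rats 6 to 10. Rats 8 and 10, which had the highest Ndufa4l2, also had the highest mural and endothelial scores. The endothelial score was 3.86 to 3.98 in sham rats and 4.10, 3.73, 4.28, 4.02 and 4.74 in stimulated rats 6 to 10. Rat 9, with a mural score of 3.51, had Ndufa4l2 at 3.16 CPM, inside the sham range. Rat 6, with a mural score of 3.17, had it at 4.07 CPM, just above that range. The part of mural or endothelial cells in the Ndufa4l2 values was not tested. Immediate early genes, which follow recent neuronal firing, had a median of 1.97 with 10 of 11 at an unadjusted p under 0.05. Their score was 5.19, 5.50 and 5.35 in stimulated rats 7, 9 and 10 and 3.41 and 2.86 in rats 6 and 8, beside 2.91 to 3.37 in sham rats. Stimulated rats 7, 9 and 10 were also those with Sdha below and Ndufa10l1 above all sham rats. Since rats 6 and 8 were not set apart by any label, no comparison of those rats with the other 3 was made.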

How the data were processed

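The deposited values are raw counts of reads per transcript with no normalization. Per the methods and processing notes, the authors used BWA with rat build RN4 and a counting script of their own. Their methods name an Ensembl annotation, but the rows carry RefSeq identifiers. The treatment of shared reads and of strand is not given in the sources used here. Symbols came from the RefSeq table of GRCr8. Groups came from the treatment labels, 5 rats each; the study's methods count 1 stimulated rat fewer, so each rat was left out in turn. Features with a summed count of at least 46 (the 30th percentile) were tested with edgeR 4.0.16 in R 4.3.3 (TMM factors, quasi-likelihood F test, Benjamini-Hochberg over 22447 features). The standard error is the log2 fold change divided by the square root of F, and 95% intervals use the fit's degrees of freedom. DESeq2 1.42.0, limma-voom 3.58.1 and other scalings, filters and tests were alternatives. CPM per rat carry the TMM factors; ratios and shifts used log2 CPM with a prior count of 2. Permutation tests used scipy 1.17.1. The fit was tested on simulated data. Named genes were, per role list, those with the most counts and the highest and lowest fold change, members with an unadjusted p under 0.05, both genes of each isoform pair and the lowest p of each other list. Genes named beyond this rule were chosen after their values were seen. Members and lists were chosen with earlier results of these data known.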

Additional observations from a re-analysis of the deposited data

Results flagged for a closer look

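Among 74 groups of 5 values (CPM of the 31 named members, the 5 isoform ratios and the members' shift, each in sham and in stimulated rats), 5 held a rat whose gap to the nearest other rat was more than 0.71 of the group's range (Dixon's criterion). Chance flags about 1 in 20 groups, 3.7 here. Ndufv1 in sham rat 3 was at 234 CPM, below 265 to 269 CPM in the other sham rats. Cox8b in sham rat 2 was at 0.763 CPM, above 0.207 to 0.293 CPM in the others, from 10 counts. Cox4i2 in stimulated rat 7 was at 5.39 CPM, above 1.31 to 2.43 CPM in the others. Ndufa4 was high in sham rat 5, at 306 CPM beside 219 to 242 CPM, and in stimulated rat 7, at 289.8 CPM beside 244 to 253 CPM. For Ndufv1 and Ndufa4, the outlying rats (sham rat 3, sham rat 5 and stimulated rat 7) were those with the lowest or highest shift of all members in their group.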

How the results depend on the processing

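The count of 0 features at an adjusted p under 0.05 became 119 with the likelihood ratio test, 90 with edgeR's exact test and 33 with DESeq2, and was 0 under the other alternatives; 0 members were among them in any. Members at an unadjusted p under 0.05 were 0 under 9 alternatives of scaling, filter, test and row choice, 0 without ribosomal RNA records and without sham rats 3 and 5, 1 higher with libraries scaled to the median member (these 3 were added after the data were seen), and, with 1 rat left out, 0 to 3 higher and 0 to 1 lower. Without sham rat 5 these were Cox7a2, Ndufa10 and Ndufa10l1 (higher), without sham rat 3 Atp5me (lower), without stimulated rat 6 Ndufa10l1 (higher) and Sdha (lower), without rat 7 Ndufa4l2 (higher), without rat 8 Sdha and without rat 10 Ndufs7 (lower); the lowest adjusted p among these was 0.301. Of all 22447 features, 1118 to 1850 were higher and 515 to 1281 lower at the unadjusted threshold with 1 rat left out. With libraries scaled to the median member, 1349 features were higher. The members' median log2 fold change ran from -0.06 to 0.03 with 1 rat left out. Of 680 values of 31 named members under 22 alternatives, 677 stayed within their error. Cox8b moved to -1.56 without stimulated rat 9, Cox4i2 to -0.15 without stimulated rat 7 and Cox6b2 to 0.37 without sham rats 3 and 5. The cause was not tested. No paired analysis was possible because the groups share no rat numbers in the labels. The 5 low-count complex IV forms had wide intervals, and how much of this is depth and how much spread between rats was not tested; read sharing with pseudogenes could not be resolved without genome and read data.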
